A study of Mus musculus with 18 samples.

Results

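The collagen chain genes were followed through 9 lists of m6A peaks from mouse 3T3-L1 cells. They were taken as every gene whose symbol reads Col, a number, a and a number, such as Col1a1. Of 44 such genes, 30 had a peak in at least 1 list, and they carried 4368 of the 338246 peaks. N6-methyladenosine (m6A), methylated adenosine inside messenger RNA, was mapped by binding RNA fragments with an m6A antibody (IP) and sequencing them beside the fragments before binding (input). Each list belonged to 1 IP and its input, and the 18 samples therefore gave 9 lists. The groups were siFTO cells (2 lists), in which the demethylase FTO was targeted by small interfering RNA, siCtrl cells given a control small interfering RNA (2 lists), and days -2, 0, 2, 5 and 10 of adipogenesis (1 list each). All came from 3T3-L1, an established line of mouse embryo fibroblasts that act as preadipocytes, so every list describes the same line, and the time after transfection is not stated in the labels. The labels do not say whether the replicates were separate cultures, so differences between them may be technical.

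Collagens are secreted proteins in which chains wind into a triple helix, built on a short repeat that begins with glycine. Their genes are known for coding the helix in many short exons. Fibrillar collagens form the cables of connective tissue, network collagens such as type IV form basement membranes, and fibril-associated collagens decorate the cables. Preadipocytes lie in a fibrillar matrix, and maturing adipocytes are known to surround themselves with a basement membrane and beaded type VI filaments. FTO removes m6A from RNA and also acts on a related mark on the base next to the 5′ cap, and the antibody does not tell these marks apart.

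The unit counted was the peak, a stretch of the genome (build mm10) that the authors called as enriched, with a fold of IP over input, a gene and a transcript part. It is not stated whether a peak across a splice junction was listed as several stretches, so the number of peaks on a gene of many short exons is not a number of methylated sites. A peak also needs enough reads, so less RNA and less methylation cannot be told apart from peak numbers. Read depth is unknown. The lists held from 26485 peaks (day -2) to 44529 peaks (day 10), with 39476 and 31259 in siFTO cells and 35979 and 39133 in siCtrl cells. The day -2 list was the shortest, and it lay near the siFTO lists in several collagen measures below. Fto itself had 5 and 4 peaks in siFTO cells against 6 and 6 in siCtrl cells, which does not measure its RNA. Of the 8 fibroblast and preadipocyte markers, Pdgfra, Pdgfrb, Vim and Thy1 had peaks in every list, and Ly6a had none in any. Dlk1 had none in siFTO cells, Fn1 had none on days 5 and 10, and Cd34 had peaks in siFTO 2, siCtrl 2 and day -2 alone. The sums were 36 and 30 in siFTO cells, 35 and 38 in siCtrl cells, and 34, 52, 43, 42 and 49 on days -2, 0, 2, 5 and 10. The 9 adipocyte markers summed to 7 and 10 peaks in siFTO cells, 13 and 13 in siCtrl cells, and 10, 13, 41, 64 and 53 on days -2, 0, 2, 5 and 10. Of them Pparg, Cebpa and Lpl had peaks in every list, Lep had none in any list, and Adipoq and Plin1 had none in the siRNA lists or on days -2 and 0. Of 13 markers of macrophages, endothelium and muscle, only Csf1r, Tek and Des had a peak in any list.

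Because FTO can act beside the cap, the sequence at the annotated transcript start is shown for collagens with peaks near it. RefSeq (build GRCm38.p6, the assembly that mm10 names) gave a start window for 35 of the 44 genes, in 38 windows, and 12 windows of 10 genes had a peak over the 50 bases after the start. The 6 windows with a peak in at least 4 lists are shown, and that of Col4a1, which faces Col4a2. Each line runs 5′ to 3′ over 30 bases, from 10 bases before the start, and the capital marks the annotated base where transcription starts.
Col5a1, chr2:27886415-27886444, plus strand: gaaaggggggAaaagtgctcagcgccgaag
Col4a2, chr8:11312795-11312824, plus strand: tcccctcggcAgtgcgcgggcggcgtctcc
Col4a1, chr8:11312807-11312836, minus strand: ggtcctccccTtggagacgccgcccgcgca
Col5a3, chr9:20815048-20815077, minus strand: cggccagggcGgggtctcgggcagtctcca
Col16a1, chr4:130047830-130047859, plus strand: ccagccccctGgaaccgccctcttccctct
Col18a1, chr10:77166511-77166540, minus strand: agcccgcagcAgcggtcgggagcactgtgg
Col6a2, chr10:76623611-76623640, minus strand: gcttgcaaggAaaaataaaaaagtcaccag

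The 50 bases after the Col5a1 start had a peak in all 9 lists, and those of Col4a2 in 6 lists. Counting peaks given to the same gene, the start base itself lay under a peak in 6 lists for Col5a1 and in 5 for Col4a2. It did so in no list for the other windows shown. The Col4a1 start base, however, lay under peaks given to Col4a2 in both siCtrl lists and on days 0, 2, 5 and 10. Col4a1 and Col4a2, the chains of the common basement membrane trimer, are divided by a shared promoter and run in opposite directions, and their windows overlap. The library kit named in the labels does not mark strand, so a read at that point cannot be given to 1 gene with certainty. The annotated start base was A in 5 of the 12 windows with a peak, in 16 of all 38 collagen windows and in 34.4% of 32851 windows of all genes. GGAC, a common form of the m6A sequence context, was searched on the transcript strand in the 50 bases after the start. It was found in 1 of the 12 windows with a peak (Col4a2), in 8 of 38 collagen windows and in 18.9% of all windows. These matches describe the windows and place no methylated base. The folds of these peaks are given with the 5′ UTR values below.

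Knockdown of FTO was compared with control first. Collagen genes had fewer peaks in siFTO cells, with 339 and 310 peaks against 568 and 590 in siCtrl cells. The means were 324.5 ± 20.5 peaks in siFTO cells and 579 ± 15.6 in siCtrl cells (SD, n = 2 each), a ratio of 0.560. The groups did not overlap, while the total lengths of the siFTO and siCtrl lists did. Collagen peaks made up 0.859% (95% interval 0.770 to 0.955) and 0.992% (0.885 to 1.11) of all peaks in siFTO cells, against 1.58% (1.45 to 1.71) and 1.51% (1.39 to 1.63) in siCtrl cells. These exact Clopper-Pearson intervals cover counting error only. The share of peaks was thus lower by 0.618 percentage points in siFTO cells (difference -0.618), at 0.925 ± 0.0940% against 1.54 ± 0.0502% in siCtrl cells (SD, n = 2 each). The two-sided exact permutation test gave p = 0.333 for both measures, which is the smallest that 2 lists against 2 allow, and 0.333 after Benjamini-Hochberg adjustment over 7 measures. The design could therefore not reach 0.05 for any of them.

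**Figure D1:**
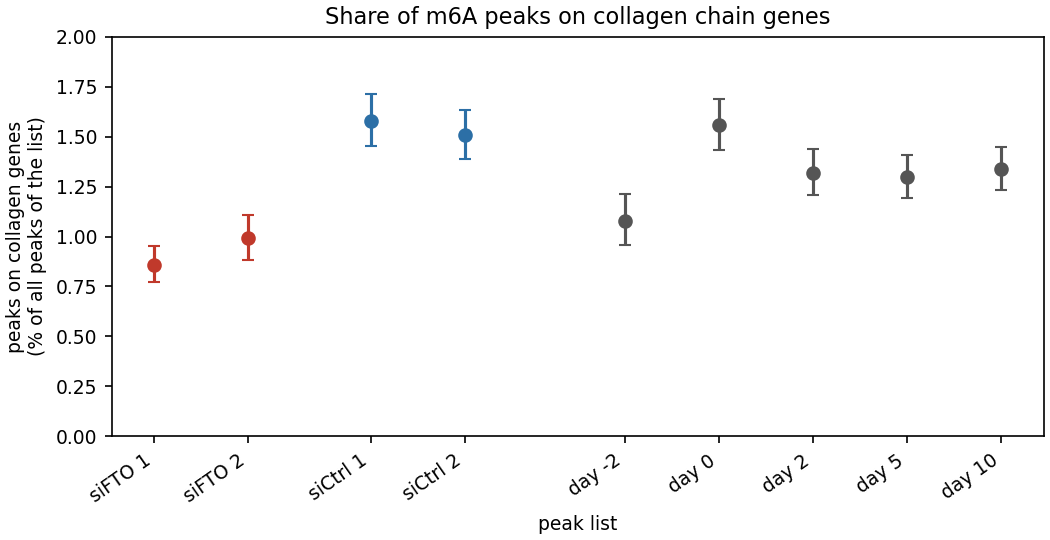
Share of each list's peaks that lie on collagen genes (vertical axis, percent) for the siFTO, siCtrl and stage lists, with exact 95% binomial intervals as bars. The 2 siFTO lists and the day -2 list lie below 1.1%, and the siCtrl and day 0 lists lie above 1.5%.

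The number of collagen genes with a peak was not lower. It was 28 and 27 in siFTO cells against 26 and 26 in siCtrl cells (difference 1.5, exact permutation p = 0.333), and the difference was -1.5 where only peaks at or above the list's median fold were kept. The median collagen gene with a peak had 12 and 12 peaks in siFTO cells against 20.5 and 21 in siCtrl cells, while the median over all genes lay between 2 and 3 in the 4 lists. Bases covered by collagen peaks numbered 34075 and 30725 in siFTO cells against 57775 and 60125 in siCtrl cells.

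Of the 29 collagen genes with a peak in a siRNA list, 20 had a lower peak number in each siFTO list than in each siCtrl list, and 1 had a higher one. Without siFTO 2, 5 of 28 had a higher one, against 42.5% of all genes. Among all 11482 genes the shares were 24.1% for fewer and 21.6% for more. Genes with many peaks were more often among those with fewer peaks, so the same count was made for genes with a mean of at least 10 peaks a list, a limit chosen after the data were seen. There, 16 of 19 collagens had fewer peaks against 63.1% of 539 genes, and 0 of 19 had more against 5.94%. The median ratio of siFTO to siCtrl peak number was 0.639 over 26 collagens (0.0769 to 2) and 0.9375 over 9312 genes. In the genes with many peaks it was 0.622 for 19 collagens and 0.765 for 539 genes. Much of the difference from all genes was therefore also seen in other genes that carry many peaks.

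**Figure D2:**
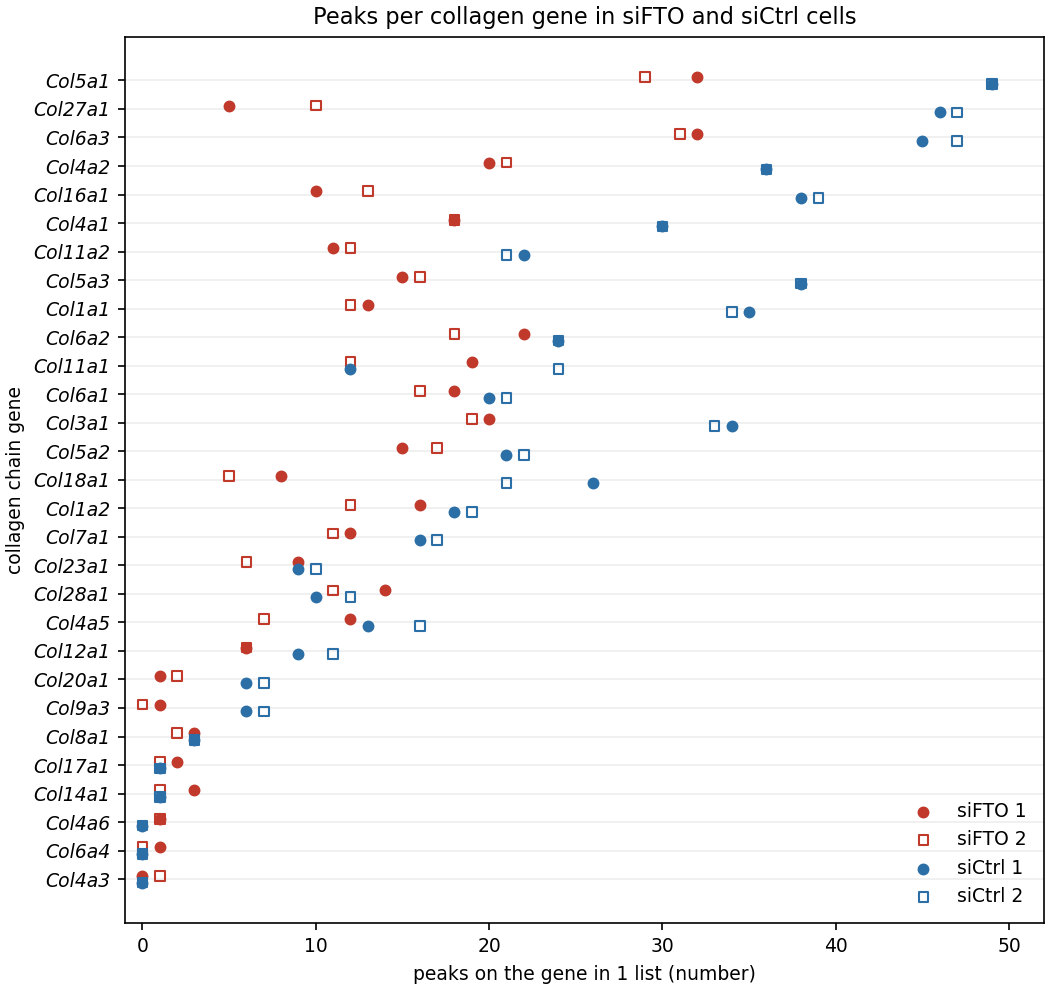
Number of peaks on each of the 29 collagen genes with a peak in a siRNA list (horizontal axis), with 1 point per list, siFTO in red and siCtrl in blue. The siFTO points lie left of the siCtrl points for 20 genes, with the widest gap at Col27a1 (5 and 10 against 46 and 47 peaks).

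Fibrillar collagens held the largest numbers. Their 9 measured genes summed to 146 and 139 peaks in siFTO cells against 275 and 287 in siCtrl cells, and 8 of the 9 had fewer peaks. Col27a1 (ENSMUSG00000045672, chr4:63214009-63334991), a fibrillar collagen known from cartilage, had 5 and 10 peaks in siFTO cells against 46 and 47 in siCtrl cells, a ratio of 0.161. Col1a1 (ENSMUSG00000001506, chr11:94936224-94953042), the main chain of type I collagen, had 13 and 12 peaks in siFTO cells against 35 and 34 in siCtrl cells. Its partner Col1a2 (ENSMUSG00000029661) had 16 and 12 against 18 and 19, so the 2 chains of the same trimer differed in ratio, at 0.362 and 0.757. Col3a1 (ENSMUSG00000026043), which forms fibrils together with type I, had 20 and 19 peaks in siFTO cells against 34 and 33 in siCtrl cells.

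Type V collagen sets the width of type I fibrils, and its 3 chains also had fewer peaks. Col5a1 (ENSMUSG00000026837, chr2:27886381-28039510), with the most peaks of any collagen over the 9 lists, had 32 and 29 in siFTO cells against 49 and 49 in siCtrl cells. Col5a3 (ENSMUSG00000004098) had 15 and 16 against 38 and 38, and Col5a2 (ENSMUSG00000026042) had 15 and 17 against 21 and 22. The ratios were 0.622, 0.408 and 0.744, and the siFTO and siCtrl lists did not overlap for any of them. Of the type XI chains, Col11a2 (ENSMUSG00000024330) had 11 and 12 peaks in siFTO cells against 22 and 21 in siCtrl cells. Col11a1 (ENSMUSG00000027966) was the fibrillar gene without a clear order, with 19 and 12 in siFTO cells against 12 and 24 in siCtrl cells, and its lists overlap.

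Of the 5 basement membrane genes with a peak in a siRNA list, 3 had fewer peaks. Col4a1 (ENSMUSG00000031502, chr8:11198423-11312889) had 18 and 18 peaks in siFTO cells against 30 and 30 in siCtrl cells, and Col4a2 (ENSMUSG00000031503, chr8:11312805-11449287) had 20 and 21 against 36 and 36. These chains, which form 1 trimer, had like ratios of 0.600 and 0.569. The X-linked Col4a5 (ENSMUSG00000031274) had 12 and 7 against 13 and 16. Its neighbour Col4a6 (ENSMUSG00000031273) was the single collagen with more peaks in both siFTO lists, at 1 and 1 against 0 and 0 in siCtrl cells. It was also the single one with a peak in both siFTO lists and in neither siCtrl list. Over all genes 8.64% had this pattern, and 4.35% had the reverse, which no collagen had. Col4a3 had 1 peak, in siFTO 2.

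In type VI collagen, which forms beaded filaments around cells, Col6a1 and Col6a2 differed less than Col6a3. Col6a1 (ENSMUSG00000001119) had 18 and 16 peaks in siFTO cells against 20 and 21 in siCtrl cells, and Col6a2 (ENSMUSG00000020241) had 22 and 18 against 24 and 24. Col6a3 (ENSMUSG00000048126, chr1:90766860-90844001), the longest of the 3 main chains, had 32 and 31 against 45 and 47. The ratios were 0.829, 0.833 and 0.685, and for each chain the siFTO lists lay below the siCtrl lists. Col6a4 had 1 peak in siFTO 1 and none in the other siRNA lists.

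Among fibril-associated collagens, 4 of the 5 measured genes had fewer peaks. Col16a1 (ENSMUSG00000040690, chr4:130047817-130099277) led with 10 and 13 peaks in siFTO cells against 38 and 39 in siCtrl cells, a ratio of 0.299. Col12a1 (ENSMUSG00000032332), found on type I fibrils, had 6 and 6 against 9 and 11. Col20a1 (ENSMUSG00000016356) had 1 and 2 against 6 and 7, and Col9a3 (ENSMUSG00000027570), a chain of the cartilage type IX, had 1 and 0 against 6 and 7. Col14a1 went the other way in number, with 3 and 1 against 1 and 1, but its lists overlap.

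The remaining classes were small. Col18a1 (ENSMUSG00000001435), a basement membrane collagen whose end fragment is endostatin, had 8 and 5 peaks in siFTO cells against 26 and 21 in siCtrl cells. Col7a1 (ENSMUSG00000025650), the collagen of anchoring fibrils in skin, had 12 and 11 against 16 and 17. The transmembrane collagens Col23a1 (9 and 6 against 9 and 10) and Col17a1 (2 and 1 against 1 and 1), the short-chain Col8a1 (3 and 2 against 3 and 3) and Col28a1 (14 and 11 against 10 and 12) had lists that overlap or tie. Col15a1 had no peak in a siRNA list. The other 14 genes had no peak in any list, among them Col2a1, Col9a1, Col9a2 and Col10a1, which are known from cartilage. They also comprised Col24a1, Col4a4, Col6a5, Col6a6, Col8a2, Col19a1, Col22a1, Col13a1, Col25a1 and Col26a1.

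Collagen peaks lay mainly in coding sequence. The coding share was 78.5% and 84.2% in siFTO cells against 92.3% and 91.9% in siCtrl cells, while over all genes it was 60.6% and 62.9% against 63.8% and 62.7%. The means were 81.3 ± 4.05% in siFTO cells and 92.1 ± 0.275% in siCtrl cells (SD, n = 2 each), a difference of -10.7 points (exact permutation p = 0.333). Introns took 16.2% and 10.6% of collagen peaks in siFTO cells against 3.87% and 4.41% in siCtrl cells (exact permutation p = 0.333). In number these were 55 and 33 intronic peaks against 22 and 26, so intronic peaks were not fewer while coding peaks were. Over all genes the intronic share was also higher in siFTO cells, at 19.5% and 17.1% against 11.1% and 11.7%.

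The 2 siFTO lists differed in where the intronic peaks lay. Col1a2 had 8 intronic peaks in siFTO 1 and 1 in siFTO 2, and none in the siCtrl lists. Col4a1 had 4 and 1 in siFTO cells against 0 and 0, and Col4a5 had 3 and 0 against 0 and 0. Col28a1 had 4 and 3 in siFTO cells against 0 and 0 in siCtrl cells, and Col6a3 had 7 and 8 against 4 and 7. The 3′ UTR held 14 and 11 collagen peaks in siFTO cells against 12 and 11 in siCtrl cells, or 4.13% and 3.55% against 2.11% and 1.86%. The 3′ UTR thus had similar numbers of peaks in the groups and a larger share in siFTO cells (3.84 ± 0.411% against 1.99 ± 0.176%, SD, n = 2 each, exact permutation p = 0.333).

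**Figure D3:**
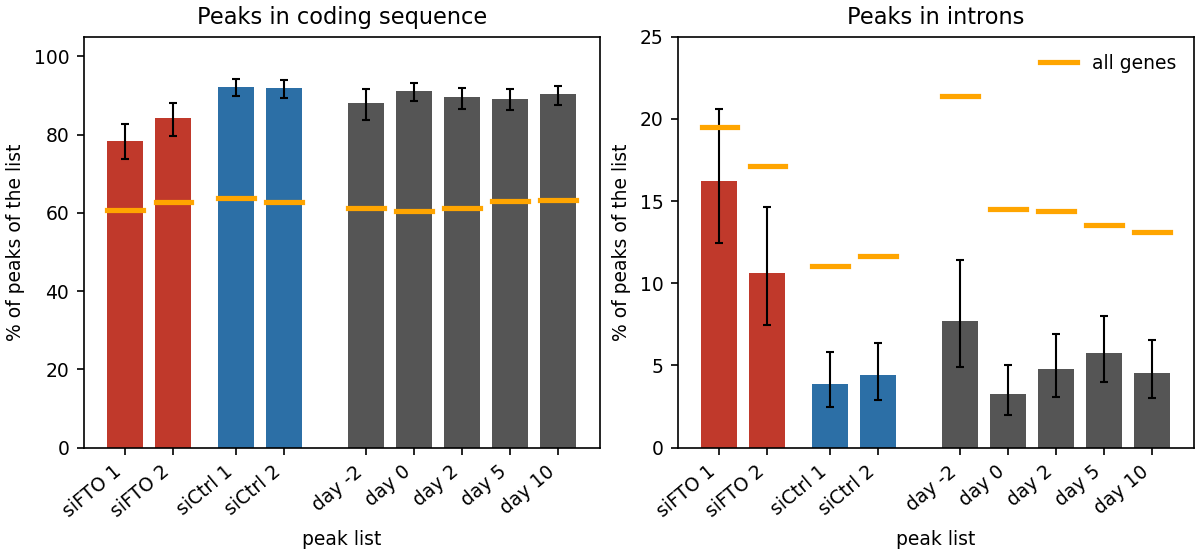
Percent of collagen peaks in coding sequence (left) and in introns (right) for each list, with exact 95% binomial intervals, and the same share over all genes as an orange line. Collagen peaks are coding more often than those of all genes in every list, and the siFTO lists have the lowest coding and the highest intronic shares of the 9.

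The 5′ UTR of collagens held 4 and 5 peaks in siFTO cells against 10 and 11 in siCtrl cells. As a share of collagen peaks this was 1.40 ± 0.306% against 1.81 ± 0.0734% (SD, n = 2 each), a difference of -0.416 points with exact permutation p = 0.333. Over all genes the 5′ UTR share was 4.33% and 5.01% in siFTO cells against 11.9% and 11.2% in siCtrl cells, so the lower number is not particular to collagens. Peaks in the 5′ UTR of Col1a1, Col4a1, Col6a2, Col16a1, Col18a1 and Col27a1 were in no siFTO list and in both siCtrl lists. The Col27a1 region (chr4:63215426-63215850) had no peak in siFTO cells, against folds of 10.73 and 9.84 in siCtrl cells. It had no peak on day -2 and folds of 13.46, 14.88, 23.15 and 35.91 on days 0, 2, 5 and 10.

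Over the bases after the Col5a1 start printed above, every list had a peak. Its fold was 2.73 and 3.54 in siFTO cells against 33.42 and 22.75 in siCtrl cells. The stage lists gave 11.02, 64.07, 31.1, 47.74 and 46.72 on days -2, 0, 2, 5 and 10. The siFTO and day -2 peaks began at base 27886426, just past the annotated start, while the others spanned it. Col4a2 had a 5′ UTR region (chr8:11312743-11313125) with folds of 1.34 and 1.33 in siFTO cells against 12.44 and 11.6 in siCtrl cells. In the stage lists it had 1.72 on day -2 and between 10.36 and 15.68 from day 0 on. There the siFTO and day -2 peaks began at base 11312876, inside the region and past the 50 bases after the start. Both regions were thus held in siFTO cells at low folds, near those of day -2 for Col4a2. They were singled out after their values were seen. Over the 50 bases after its start, Col18a1 had no peak in siFTO cells, against folds of 3.3 and 3.18 in siCtrl cells, and 10.43 and 5.36 on days 2 and 10. Col5a2 showed the opposite pattern at its 5′ UTR (chr1:45502976-45503113), with folds of 1.72 and 2.08 in siFTO cells, 1.74 on day -2 and no peak in the other lists.

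Peaks of the 9 lists that shared at least 1 base within a gene were merged into 67991 regions, of which 816 lay on collagens. Of the 662 collagen regions in the siRNA lists, 233 were lost, meaning in no siFTO list and both siCtrl lists, and 23 were gained, meaning the reverse. That is 35.2% lost against 14.6% of 47900 regions of all genes, and 3.47% gained against 12.3%. With peaks at or above the median fold alone, 136 were lost and 14 gained, and without siFTO 2 the gained regions numbered 69. The shares of all genes under these settings are not given, and without siFTO 2 a gained region needed siFTO 1 alone. The regions in all 4 lists numbered 211, or 31.9% against 30.9% of all genes. Lost regions were nearly all coding, at 221 of 233 (94.8%), while over all genes 55.5% of lost regions were. Coding regions also made up 85.3% of the 662 collagen regions and 91.5% of the 211, against 57.2% and 70.5% over all genes. A high coding share was thus not particular to the lost regions of collagens.

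Lost regions were spread widely in some genes and less widely in others. Those of Col1a1 lay between 0.007 and 0.892 of the gene's length from its start, and those of Col11a2 between 0.471 and 0.873. Col27a1 had 32 lost of 48 regions, Col16a1 23 of 41, Col5a3 20 of 40, Col5a1 20 of 54 and Col1a1 18 of 35. The median position of all lost collagen regions was 0.667 of the gene's length from its start, against 0.659 for regions in all 4 lists. Their folds in siCtrl cells had a median percentile of 37.5 within the list, against 66.1 for collagen regions in all 4 lists, and 36.5 and 54.2 over all genes. Lost regions were therefore among the lower peaks of control cells, in collagens as in all genes.

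Some lost regions ranked high in control cells. In Col27a1, the coding region chr4:63318901-63318975 had no peak in siFTO cells, against folds of 11.3 and 11.5 in siCtrl cells, with 18.9, 39.6, 64.32 and 123.68 on days 0, 2, 5 and 10. A coding region of Col11a2 (chr17:34061201-34061275) had 10.1 and 9.34 in siCtrl cells and between 16.04 and 39.14 from day 0 on. One of Col5a3 (chr9:20787251-20787325) had 7.59 and 7.46 in siCtrl cells and 24.06 on day 0. None of these 3 had a peak in siFTO cells or on day -2. Of the 233 lost regions, 36, 180, 146, 153 and 176 were held on days -2, 0, 2, 5 and 10, and of the 211 in all 4 siRNA lists, 165, 185, 174, 186 and 189 were. For the 32 lost regions of Col27a1 the numbers were 4, 30, 32, 29 and 32, and for the 18 of Col1a1 they were 0, 15, 10, 10 and 13. Day -2, the shortest list, held 15.5% of the lost collagen regions and 15.5% of the lost regions of all genes, so its low share was not particular to collagens. Days 0, 2, 5 and 10 held 77.3%, 62.7%, 65.7% and 75.5% of the lost collagen regions. Over all genes they held 70.2%, 67.5%, 75.9% and 77.0%. Of collagen regions in all 4 siRNA lists, days -2, 0, 2, 5 and 10 held 78.2%, 87.7%, 82.5%, 88.2% and 89.6%. Over all genes they held 69.1%, 73.6%, 73.6%, 81.6% and 81.6%.

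The 23 gained regions lay on 14 genes, with 12 coding, 7 intronic, 3 in a 3′ UTR and 1 in a 5′ UTR. Their median position was 0.840 of the gene's length. An intronic region of Col28a1 (chr6:8011126-8011250) ranked highest, with folds of 38.94 and 36.54 in siFTO cells and no peak elsewhere. An intronic region of Col4a2 (chr8:11447801-11447925) had 24.64 and 28.29, and the 3′ UTR region of Col4a6 (chrX:141166551-141166675) had 27.02 and 21.22, again with no peak elsewhere. These 3 were high and close between the siFTO lists. Of the 23, 5 were on Col5a2, 4 of them coding, at folds of 4.32 or less in siFTO cells.

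Regions held by all 4 siRNA lists allow the fold itself to be set side by side, which peak numbers do not. Folds were ranked within each list as percentiles, since the depth scaling is not known. Of the 211 collagen regions, 139 had a lower percentile in each siFTO list than in each siCtrl list, and 27 had a higher one. Over all 14804 such regions the shares were 43.4% lower and 33.9% higher, against 65.9% and 12.8% of collagen regions. The median mean percentile of the collagen regions was 42.3 in siFTO cells against 66.1 in siCtrl cells, and over all genes 51.0 against 54.2. With folds in place of percentiles, 100 of the 211 were lower and 47 higher, while over all genes 31.2% were lower and 45.3% higher. This comparison was added after the data were seen, and regions of 1 gene are not independent.

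**Figure D4:**
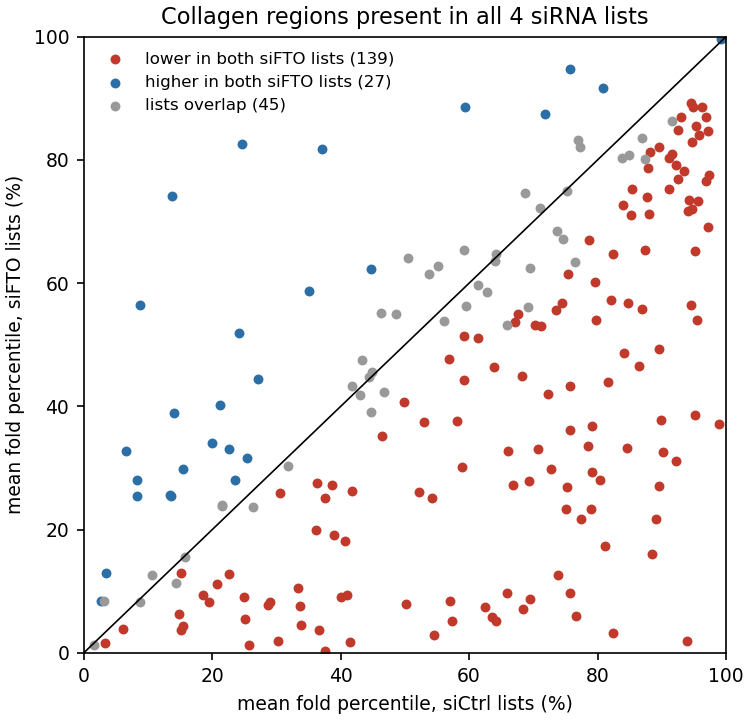
Mean fold percentile in the siFTO lists (vertical axis) and in the siCtrl lists (horizontal axis) for the 211 collagen regions present in all 4 siRNA lists, with 1 point per region and the line of equal values. Below the line lie the 139 regions that were lower in both siFTO lists, and 27 regions were higher.

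Regions of nearly all classes were among the lower ones. Col4a2 had 15 of 17 regions lower and 0 higher, Col6a2 15 of 16 and Col6a1 12 of 14, so Col6a1 and Col6a2, whose peak numbers differed less, had lower percentiles too. Col6a3 had 15 of 20 lower and Col5a1 16 of 21. Exceptions were Col11a1, with 0 of 7 lower and 2 higher, and Col4a5, with 0 of 6 lower and 2 higher. Col5a3 had 4 lower and 3 higher of 13, and Col5a2 had 4 lower and 2 higher of 10. Col7a1 had 2 lower and 2 higher of 7, and Col1a2 and Col28a1 each had 2 lower and 2 higher of 6.

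Present in all 9 lists were 138 of the 816 collagen regions, or 16.9% against 10.8% of all regions, on 21 genes, and 131 of the 138 were coding. Col4a2 had 17 of them, Col5a1 16, and Col4a1, Col6a2 and Col6a3 14 each. A coding region of Col6a3 (chr1:90793001-90793100) had folds of 13.93 and 20.57 in siFTO cells and 14.23 and 12.19 in siCtrl cells. It had 24.87, 29.25, 20.23, 18.94 and 31.69 on days -2, 0, 2, 5 and 10. A coding region of Col6a2 (chr10:76609251-76609350) had 12.38 and 18.37 in siFTO cells, 15.03 and 18.79 in siCtrl cells, and between 15.09 and 33.72 over the stages. At both regions the siFTO and siCtrl folds overlapped, but the percentiles within the lists did not, at 83.7 and 90.1 in siFTO cells against 96.4 and 97.4 in siCtrl cells for Col6a2. For Col6a3 they were 85.4 and 91.7 against 96.0 and 93.7.

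Adipogenesis was followed in 1 list per day, so no test was made. Collagens held 286, 583, 526, 571 and 595 peaks on days -2, 0, 2, 5 and 10. The shares were 1.08% (0.959 to 1.21), 1.56% (1.43 to 1.69), 1.32% (1.21 to 1.44), 1.30% (1.19 to 1.41) and 1.34% (1.23 to 1.45) in the same order, with exact 95% intervals. The interval of day 0 lay above that of day 5 and overlapped slightly with those of days 2 and 10, while the number of collagen peaks was similar from day 0 on and the lists grew longer. Genes with a peak numbered 26 and 26 on days -2 and 0 and 23 on each later day. The coding share lay between 88.1% and 91.1% over the stages.

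Comparing day 10 with day 0 by the ratio of peaks plus 1, 0 of 26 collagens had at least 1.5 times as many, against 28.5% of all genes. Ratios at or below 1/1.5 were found in 4 of 26, against 8.25% of all genes. These were Col3a1 (11 peaks on day 10 against 19 on day 0), Col8a1 (0 against 2), Col17a1 (0 against 1) and Col15a1 (0 against 2). Of these, Col3a1 alone had more than 2 peaks on day 0. Col15a1, a multiplexin near basement membranes, had 1, 2, 0, 0 and 0 peaks on the 5 days. A gene with few peaks can pass either limit by a change of 1 peak. On day 0 the median gene with a peak had 3 peaks, and the median collagen had 19. The shares of all genes are therefore not matched to collagens in peak number, and no share was counted for genes with many peaks alone.

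Day 2, after induction, stood out more than day 10. Of 26 collagens, 10 had a ratio to day 0 at or below 1/1.5, against 13.4% of all genes, and 4 had a ratio of at least 1.5, against 22.9%. As on day 10, these shares of all genes are not matched to collagens in peak number. Among the fibrillar genes with few peaks on day 2, Col1a2 had 6, 19, 6, 16 and 15 peaks on days -2, 0, 2, 5 and 10. Col3a1 had 19, 19, 7, 11 and 11, and Col1a1 had 10, 41, 25, 29 and 34. Col5a2 had 12, 19, 12, 15 and 21, and the fibril-associated Col12a1 had 3, 12, 3, 8 and 13. All 5 had more peaks on day 10 than on day 2, and Col3a1 stayed furthest below its day 0 number.

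Col28a1 had 13, 14, 0, 8 and 14 peaks, so its day 2 list alone was empty. Col23a1 had 9, 19, 11, 11 and 14, and Col4a5 had 8, 6, 3, 8 and 4. Col17a1 and Col15a1 completed the 10. In the other direction, Col7a1 had 2, 9, 27, 21 and 12 peaks, Col18a1 had 11, 14, 30, 16 and 13, and Col11a2 had 13, 29, 47, 50 and 41. Col9a3 had 0, 1, 2, 3 and 1. Col7a1 and Col18a1 had their highest numbers on day 2 and were near their day 0 numbers by day 10.

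**Figure D5:**
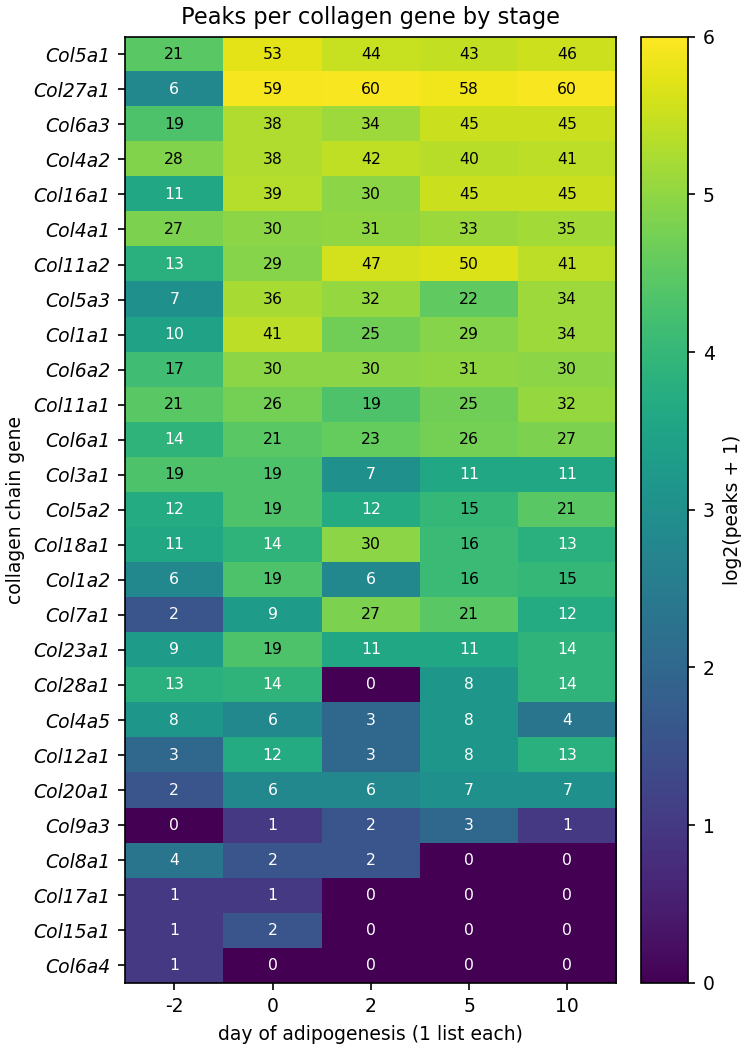
Number of peaks on each of the 27 collagen genes with a peak in a stage list (rows) on days -2, 0, 2, 5 and 10 (columns), with the number printed and log2(peaks + 1) as colour. Col1a2, Col3a1, Col12a1 and Col28a1 have few peaks on day 2 (6, 7, 3 and 0), and Col7a1 and Col18a1 have the most on that day (27 and 30).

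Of the other genes with many peaks, some had similar numbers from day 0 on and some varied. Col27a1 had 6, 59, 60, 58 and 60 peaks over the 5 days, Col5a1 had 21, 53, 44, 43 and 46, and Col6a3 had 19, 38, 34, 45 and 45. Col16a1 had 11, 39, 30, 45 and 45, and Col5a3 had 7, 36, 32, 22 and 34, with a low number on day 5. Similar numbers from day 0 on were found for the basement membrane pair and Col6a2, with 28, 38, 42, 40 and 41 for Col4a2, 27, 30, 31, 33 and 35 for Col4a1, and 17, 30, 30, 31 and 30 for Col6a2. Col6a1 had 14, 21, 23, 26 and 27, Col11a1 had 21, 26, 19, 25 and 32, and Col20a1 had 2, 6, 6, 7 and 7. The low values of day -2 were shared by most genes, but Col4a1 (27), Col3a1 (19) and Col28a1 (13) were near their day 0 numbers on that day too.

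Late regions, held on days 5 and 10 and on neither day -2 nor day 0, numbered 32 of 702 collagen regions, or 4.56% against 7.37% of all genes. Col11a2, a chain of type XI, a minor fibrillar collagen, had 12 of the 32. Its coding region chr17:34059451-34059525 had folds of 18.34, 17.05 and 29.69 on days 2, 5 and 10 and no peak in any other list. A coding region of Col7a1 (chr9:108973501-108973600) had 41.92, 76.29 and 25.38 on these days and was also in the 4 siRNA lists, with 14.04 and 10.61 in siFTO cells and 6.65 and 11.27 in siCtrl cells. None of the 32 lay in a UTR, and 22 were already held on day 2.

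Early regions, the reverse, numbered 6, or 0.855% against 0.582% of all genes. Without the day -2 list 41 were counted, but the rule then asks for day 0 alone and is met more easily. The share of all genes in that setting is not given. An intronic region of Col3a1 (chr1:45313326-45313550) had a fold of 452.18 on day -2 and 8.64 on day 0, and no peak later. In the siRNA lists it had 253.51 and 99.01 in siFTO cells against 28.92 and 33.48 in siCtrl cells. These were the highest collagen folds of both siFTO lists and of day -2. A region in an intron of Col28a1 (chr6:8177976-8178150) had 360.48 on day -2, 24 on day 0, and 23.84 and 31.83 in siFTO cells, with no peak in the other lists. The early region of Col15a1 was coding (chr4:47270301-47270400), with 10.19 and 8 on days -2 and 0.

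Genes whose products act on collagen were described from lists written beside the collagen classes. Of 20 genes of collagen synthesis and folding, 19 had a peak in a siRNA list, 3 had fewer peaks in siFTO cells and 2 had more, with sums of 60 and 54 against 59 and 64. P3h1, a prolyl hydroxylase, had 4 and 4 peaks in siFTO cells against 7 and 8 in siCtrl cells. P4hb, a subunit of another prolyl hydroxylase, had 7 and 7 against 8 and 9. Ppib, a folding enzyme of the same complex as P3h1, had 2 and 1 against 0 and 0, and Sec24d, a coat protein of the vesicles that carry procollagen, had 2 and 2 against 0 and 0. P3h3 had 4 and 5 against 6 and 8. The sums of this list thus nearly matched between the groups, and fewer and more were both below the shares of all genes.

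Of 14 genes of propeptide cleavage and cross-linking, 11 had a peak in a siRNA list, with 4 fewer and 1 more, and sums of 33 and 20 against 54 and 53. The shares of all genes given above, 24.1% fewer and 21.6% more, apply to these short lists too, where 1 gene moves the share widely. Adamts14, which trims procollagen, had 1 and 1 peaks in siFTO cells against 11 and 13 in siCtrl cells, and its relative Adamts2 had 2 and 1 against 4 and 5. Furin, a protease that activates other enzymes of the pathway, had 2 and 3 against 11 and 10. Loxl3, a cross-linking oxidase, had 3 and 0 against 5 and 5, and its relative Loxl2 had 1 and 1 against 0 and 0. Of 10 receptor genes, 6 had a peak in a siRNA list. Mrc2, an uptake receptor for collagen, had 8 and 9 against 20 and 22, and the integrin chain Itga1 had 2 and 2 against 4 and 4. Ddr2, a receptor kinase for fibrillar collagen, had 9 and 4 against 1 and 1 and was the receptor with more. Of 9 fibril-binding proteoglycans, 5 had a peak in a siRNA list and 2 had fewer, namely Prelp (4 and 1 against 7 and 7) and Fmod (0 and 0 against 1 and 2).

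Other measures of collagen peaks were set beside those of all genes in the 4 siRNA lists. Peaks that touch the previous peak of their gene made up 2.65% and 3.23% of collagen peaks in siFTO cells against 4.93% and 5.25% in siCtrl cells, while over all genes it was 12.3% and 10.1% against 22.9% and 23.3%. The median collagen peak was 100 bases wide in both siFTO lists and 75 in both siCtrl lists, against 125 over all genes in the 4 lists. The median fold percentile of collagen peaks was 39.9 and 43.7 in siFTO cells against 48.0 and 47.6 in siCtrl cells. Collagen 5′ UTR peaks had median percentiles of 9.53 and 23.6 in siFTO cells against 72.2 and 60.3 in siCtrl cells, and over all genes these were 38.8 and 43.0 against 57.8 and 56.7. Collagen intronic peaks had 76.8 and 71.2 in siFTO cells against 69.9 and 62.4 in siCtrl cells, and over all genes these were 79.3 and 77.7 against 63.9 and 64.8. The siFTO peaks thus ranked lower in the 5′ UTR and higher in introns than the siCtrl peaks, in collagens as in all genes.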

How the data were processed

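The labels, not the files' order, gave each list its group. The submitters' processing notes name TopHat2 2.0.9, bedtools and the build mm10. How peaks were called and scaled for depth is not given in the sources. Per the file headers, each deposited peak carries an enrichment, taken here as the authors' fold (ratio) of IP over input, by an unstated formula. Mitochondrial lines, whose cells were shifted, were set apart (0 to 21 a list). Of 12634 gene IDs, 12492 had a symbol.

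Peaks on collagens were counted per list and gene, and merged within each gene into regions if they overlapped by 1 base or more. Replicate lists were distinct, since 477 collagen peaks had the same position in both siCtrl lists and 1 of these the same fold (194 and 3 in siFTO). A two-sided exact permutation test, with 6 possible assignments of the 4 siRNA lists, was run on 7 measures, with Benjamini-Hochberg adjustment. No count model was fitted, since the lists hold no counts. Python 3.11.15, pandas 2.3.3, SciPy 1.17.1 and statsmodels 0.14.6 were used, and the counting was tested on simulated data.

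Values in every list are given for the 10 collagens with the most peaks and those with more or fewer peaks in both siFTO lists. They are also given for those with a peak in both lists of 1 siRNA group and neither of the other. The same holds for those whose day 10 to day 0 ratio passed 1.5 or 1/1.5. Regions were ordered by the worse fold percentile over the lists that define their class, with up to 3 per gene and 10 per class. The members and gene lists were chosen with earlier results of these data known. Alternatives were a fold at or above the list's median, equal list lengths, no intronic peaks, joined adjoining peaks, a 50% overlap and each siRNA list left out.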

Additional observations from a re-analysis of the deposited data

How the results depend on the processing

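No paired analysis was possible because the labels number only the second siFTO and siCtrl replicates, so the groups share fewer than 2 numbers. Collagen peak number, share of peaks, coding share and the day 10 minus day 0 share kept their direction under every alternative tried. For peak number, share of peaks and coding share, the siFTO and siCtrl lists did not overlap, so leaving out a siRNA list could not reverse them. Genes with fewer peaks numbered 17 to 22, or 16 among those with a mean of at least 10 peaks. Leaving out a list could only keep or raise the numbers of genes with fewer or more peaks. The share of all genes with fewer peaks also moved, from 17.6% with adjoining peaks joined to 38.9% without siFTO 1. It was 63.1% among genes with a mean of at least 10 peaks. The difference in collagen genes with a peak was -1.5 with peaks at or above the median fold, where it had been 1.5, so its direction rests on low peaks. Genes with more peaks numbered 2 at or above the median fold, 4 with equal list lengths (26485 peaks each), 0 among genes with a mean of at least 10 peaks, and 1 to 5 with a siRNA list left out. Over all genes the shares with more peaks were 22.8%, 24.7% and 5.94% in the same order. With a siRNA list left out they were 23.6% to 42.5%. Gained regions numbered 14 at or above the median fold and 27 to 69 with a list left out, 69 without siFTO 2, and lost regions 136 at or above the median fold. Early regions numbered 29 with equal lengths, 3 with an overlap of at least 50% and 41 without the day -2 list. A rule that asks for fewer lists is met more easily, so the rises with a list left out are built into the rule. For gained, lost and early regions, the shares of all genes under these settings are not given. Regions of all 4 lists with a lower fold percentile numbered 44 at or above the median fold and 63 with equal lengths, where only 68 and 104 collagen regions were in all 4 lists. Those with a higher one numbered 5 and 8. Over all genes' regions, 47.4% and 46.0% were lower and 28.5% and 30.1% higher, in the same order of settings. Where no such number shows it, the cause was not tested. The settings without the day -2 list, with genes of at least 10 peaks and with fold percentiles were chosen after seeing the data. With an overlap of at least 50%, 123 of 189 such regions were lower and 23 higher, against 31.6% and 43.9% of all genes' regions. Depth is unknown, which limits every count and fold.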
